A study of Mus musculus with 2 samples.

Results

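RPE cells with high RNA content were chosen by their measured values, namely at least 15000 unique molecular identifiers (UMIs), at least 500 genes, at most 5% of UMIs from mitochondrially encoded genes and at least 5% of UMIs from Ttr. A UMI tags a captured transcript before amplification, so that UMIs and not amplified copies are counted. The rule took 415 of 2844 cells of mouse R1 and 658 of 2994 cells of mouse R2, together 1073 of 5838 cells, and these are called high-RNA cells here. The name stands for total UMIs, since the RNA content of a cell was not itself measured. The comparison was made within each mouse with mid-depth cells, which passed the same filters and held 6000 to 12000 UMIs (1174 cells of R1 and 832 of R2). Both samples came from male C57BL/6J mice at postnatal day 36 per the protocol, whereas another label gives 4 to 5 weeks, with no genetic alteration or treatment named. RPE sheets were released from the eyecups with trypsin, each sample joined the left and the right eye of 1 mouse, and cells that took up calcein and excluded DAPI, a sort for viable cells, were loaded on the 10x Genomics droplet platform. There was 1 condition, so that each value below compares cells of the same animals and replication is 2 mice.

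The RPE is a monolayer of pigmented cells between the photoreceptors and the choroid. Its cells regenerate the chromophore of the visual pigments in the visual cycle, take up shed photoreceptor outer segments, move ions and nutrients between the blood and the retina, and hold melanin that was mostly made during development. Ttr encodes transthyretin, a carrier of thyroid hormone and retinol that the RPE secretes, Rpe65 the isomerase of the visual cycle and Rgr an opsin that acts in the same cycle. Cells of this layer are known to differ in size and in the number of nuclei. Neither was measured in these files.

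In R1, the high-RNA cells were 15.2% of the 2723 cells that passed the filters on genes, mitochondrial UMIs and Ttr (exact Clopper-Pearson 95% interval 13.9 to 16.6) and held 29.4% of all UMIs of the library. In R2, they were 22.3% of 2947 cells (20.8 to 23.9) and held 45.9% of all UMIs. Every cell with at least 15000 UMIs passed the other filters in both mice. Their total UMIs, on which they were selected, ran from 15002 through a median of 17708 to 34490 in R1 and from 15013 through 19977 to 34617 in R2. R2 therefore had the larger share of its cells above the limit and more cells far above it, with 328 cells from 20000 UMIs against 94 in R1. The libraries held 26034378 UMIs in R1 and 29732969 in R2. Of all cell barcodes, 12 occurred in both libraries, and none of these was a high-RNA cell in both.

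**Figure D1:**
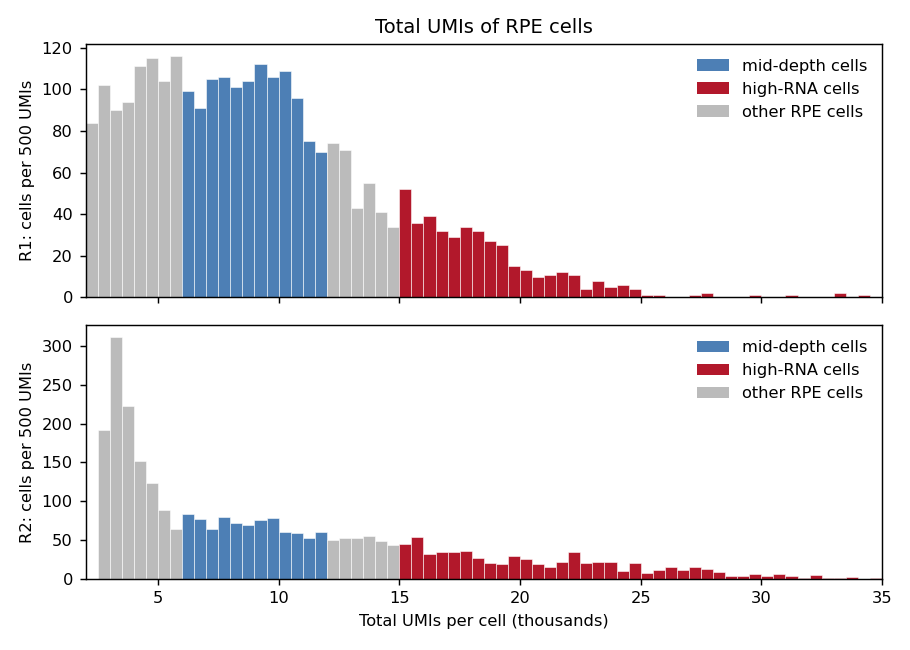
Number of RPE cells that passed the filters in each interval of 500 UMIs (y axis) by total UMIs per cell (x axis, in units of 1000 UMIs), for R1 (top) and R2 (bottom). High-RNA cells, in red, form the upper tail of a distribution without a gap at 15000 UMIs, and the tail holds 415 cells in R1 and 658 in R2.

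The limit at 15000 UMIs did not fall at a break in the distribution, as the plot of UMIs per cell shows. Cells with 15000 to 15500 UMIs numbered 52 in R1 and 45 in R2, and cells with 14500 to 15000 UMIs numbered 34 and 44. Once 6000 UMIs had been drawn from each cell, cells just inside the limit had a median of 1870 genes in R1 and 1705 in R2, and those just outside had 1868.5 and 1724.5. Their mitochondrial shares had medians of 0.982% and 1.18% inside and 0.928% and 1.14% outside. Cells on the 2 sides of the limit were thus close to each other in both mice. Neighbours at nearly equal depth cannot show whether deeper cells are a separate type, which was not tested. The high-RNA cells are treated here as a range of a continuous measure.

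The label as RPE was checked against marker genes. Every high-RNA cell held UMIs of Rgr and Rpe65 after 15000 UMIs had been drawn from it. With levels given as UMIs per 10000 UMIs here and in what follows, after 6000 UMIs had been drawn from each cell, Rpe65 stood at 46.6 in high-RNA cells of R1 and at 47.2 in those of R2. Genes that define microglia, fibroblasts and rods were at or near 0, and the lists for Müller glia, choroidal melanocytes, Schwann cells and pericytes were not. The summed level of 8 microglia or macrophage genes was 0.0120 in high-RNA cells of R1 against 0.239 in mid-depth cells of R1, and 0.00253 against 0.00601 in R2. Cx3cr1, a receptor that marks microglia, was at 0 in all 4 groups of cells, and the most abundant gene of the list, C1qb, averaged 0.0163. For 6 fibroblast genes the sum was 0.0241 in R1 and for 8 rod photoreceptor genes it was 0.0402, and Pdgfra, Col1a1, Lum, Nrl and Nr2e3 were at 0. The list for Müller glia summed to 250.3 (R1) and 225.6 (R2) in high-RNA cells, mostly from Apoe, and holds Rlbp1, a gene of the RPE itself, while its member Aqp4, the water channel of these glia, was at 0. The list for choroidal melanocytes summed to 2.08 against 3.12 in mid-depth cells in R1 and to 1.71 against 2.46 in R2, mostly from Mlana. Its member Sox10, which the list for Schwann cells also holds, averaged 0.565 over the 4 groups of cells, and Pax3 was at 0. The list for Schwann cells summed to 0.795 in R1, mostly from Sox10, and that for pericytes to 3.01, mostly from Acta2. Acta2, which encodes a smooth muscle actin, was called as higher in high-RNA cells, at 2.84 against 2.22 in R1 and 2.65 against 2.21 in R2 (log2 fold change 0.31, SE 0.062, in the edgeR test given further on).

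A doublet of RPE cells and 1 RPE cell with more RNA cannot be told apart by marker genes. The share of cells with a doublet score in the top 4% of the library, ties included, was 16.4% of high-RNA cells in R1 (68 of 415, exact 95% interval 13.0 to 20.3) against 3.92% of mid-depth cells. In R2 it was 15.7% (103 of 658, 13.0 to 18.7) against 1.32%. The score, from Scrublet, compares each cell with sums of random pairs of cells, and its median was 0.116 in high-RNA against 0.0828 in mid-depth cells of R1 and 0.110 against 0.0802 in R2. UMIs of at least 2 genes of a list for microglia, fibroblasts, endothelial cells or pericytes were found in 21.7% of high-RNA cells of R1 and 21.4% of those of R2, against 9.20% and 7.81% of mid-depth cells, which held fewer UMIs. The part of doublets of RPE cells in the results was not tested. Losses of a call without the cells of high score are named below for several genes.

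High-RNA cells contained more genes than mid-depth cells. Before UMIs were equalised, their median was 3342 genes in R1 and 3198 in R2, against 2190 and 1931 in mid-depth cells. With 6000 UMIs drawn from every cell, the median was 1887 against 1771 genes in R1, a ratio of 1.07, and 1784.5 against 1609 in R2, a ratio of 1.11. The middle 80% of cells spanned 1814.4 to 1971.6 genes in high-RNA and 1668 to 1874.7 in mid-depth cells of R1, and 1687 to 1870.3 against 1498.1 to 1709.9 in R2, so the classes overlapped. With 2 mice no test was made.

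**Figure D2:**
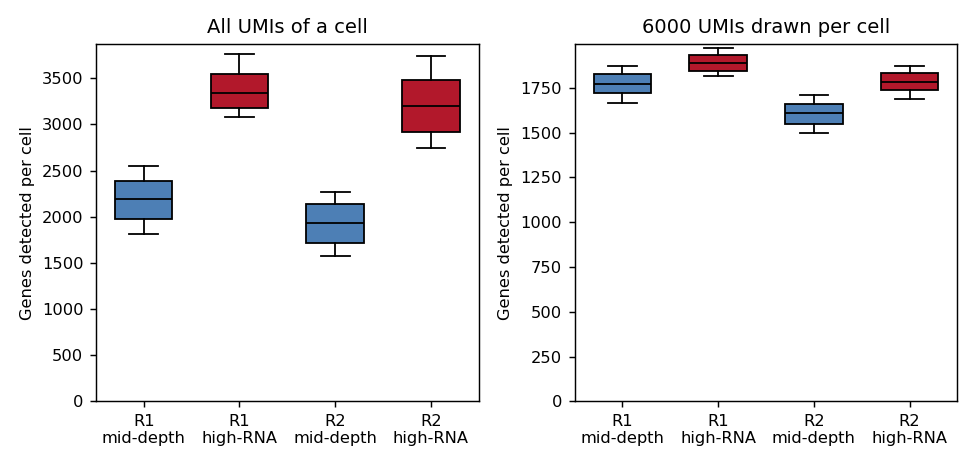
Genes detected per cell (y axis) in mid-depth and high-RNA cells of R1 and R2, from all UMIs of a cell (left) and from 6000 UMIs drawn per cell (right). Boxes show the median and the quartiles, and whiskers the 10th to the 90th percentile. The gap of 1152 genes in R1 shrinks to 116 genes at equal UMIs.

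The excess of genes at equal UMIs depended on how many UMIs were drawn. With 2000 UMIs per cell the ratio of the medians was 1.04 in R1 and 1.05 in R2, and with 1000 UMIs it was 1.03 and 1.03 (528 against 515 genes in R1, 508 against 493 in R2). UMIs of rare genes also came in groups. Among genes with a mean of 0.05 to 0.1 UMIs per cell, 22.8% of all findings of such a gene in a high-RNA cell of R1 were of more than 1 UMI, and likewise 22.8% in mid-depth cells, where independent counts of that mean would give 3.76%. In R2 the shares were 32.8% and 33.6%. The classes were alike in this respect, but drawing 6000 of many UMIs splits such groups more often than drawing 6000 of few. The part of this in the higher number of genes was not tested beyond the smaller draws.

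Summed over cells, the transcriptomes of the 2 classes were close. The log-scale levels of high-RNA and mid-depth cells correlated across genes, with 1 added to each level, with a Pearson r of 0.996 in R1 and 0.996 in R2, and those of the high-RNA cells of R1 and R2 with r = 0.994. Genes are not independent replicates, and no p is given. High-RNA cells had on average 2.07 times the UMIs of mid-depth cells in R1 and 2.35 times in R2. Of 2062 genes with at least 0.5 UMIs per mid-depth cell in both mice, 2060 had more UMIs per cell in high-RNA cells of both mice. The ratio per gene had a median of 2.12 in R1, with the middle 80% of genes between 1.87 and 2.38, and a median of 2.42 in R2, between 2.11 and 2.71. The exceptions were Serpine3, which encodes a member of the serpin family, at 0.745 UMIs per high-RNA cell against 1.22 per mid-depth cell of R1 and 1.07 against 1.06 in R2, and Trpm1, a cation channel of pigment cells and ON bipolar cells, at 0.708 against 0.835 in R1 and 0.634 against 0.502 in R2. Since cells were selected on total UMIs, a rise per cell in most genes follows from the rule. Among weaker genes that were called, 8 had fewer UMIs per high-RNA cell in both mice, namely Amt, Cthrc1, Diaph3, Dnajc6, Gm26797, Opn4, Pax6 and Pmel, the last with 0.280 against 0.582 in R1 and 0.229 against 0.246 in R2. A lower level per 10000 UMIs, as reported in the following, can thus be a smaller rise in UMIs per cell or a fall.

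The shares of UMIs were tested on the sums of the 6000 UMIs of each cell, with 2 mice and 2 classes of cells. The comparison covered 10076 genes, and 293 of them (2.91%) passed the threshold of 0.05 on the adjusted p by edgeR's quasi-likelihood test with the mouse as a block, 160 of them higher (1.59%) and 133 lower (1.32%) in high-RNA cells. Of these, 7 of those lower were genes that the rule used, Ttr and 6 mitochondrially encoded genes, from whose calls nothing is read. Without the 11 tested genes of this kind, 286 of 10065 (2.84%) were called, 160 higher and 126 lower (1.25%). Calls were more frequent among abundant genes. Of 2383 genes with a mean of at least 0.5 UMIs per 10000, 138 were called higher and 77 lower in the same direction in both mice, without genes of the rule. Many members of the lists below are that abundant, so the shares over all genes set beside them are a low reference. The changes were small. The median absolute log2 fold change (log2FC) of the genes called was 0.31, 75 exceeded 0.5 and 23 exceeded 1, and in 290 R1 and R2 changed alike in sign. The median log2FC of all genes tested was -0.0036. The test rests on 1 residual degree of freedom among 4 sums, and without the block 4 genes were called, all lower. DESeq2 called 34 and gave 9376 genes no adjusted p.

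**Figure D3:**
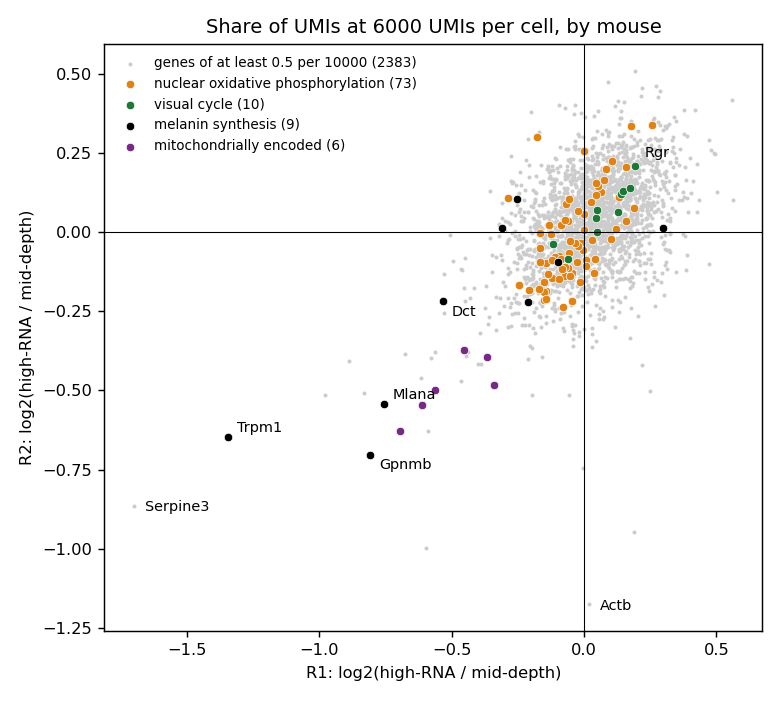
Log2 ratio of the level in high-RNA over mid-depth cells in R1 (x axis) and R2 (y axis) for the 2383 genes with a mean of at least 0.5 UMIs per 10000, with 4 gene groups in colour. Of all genes shown, 67.1% had the same sign in both mice, and the mitochondrially encoded genes and the melanin genes Trpm1, Gpnmb, Mlana and Dct lie lower left.

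Because the cells were selected on total UMIs, to which every gene contributes, the test was repeated with classes set by the other part of the genes, split by odd and even Ensembl number. It then called 277 genes, 155 higher and 122 lower, of which 189 were among the 293, and all 293 kept their direction. The high classes then held 415 and 408 cells in R1 and 660 and 652 in R2, against 415 and 658. They came from the same libraries, and the cells shared with the main classes were not counted. The kept direction is therefore not an independent check. Across the 2383 genes of at least 0.5 UMIs per 10000, the log2 ratios of R1 and R2 had the same sign in 67.1%, and their Pearson r was 0.49, given as a description since these genes share libraries.

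Among the markers, Rgr was higher and Rpe65 was not called. Rgr stood at 220.3 in high-RNA against 192.7 in mid-depth cells of R1 and at 245.6 against 212.5 in R2. Its log2FC was 0.20 (SE 0.018, adjusted p = 9.88e-26). Rpe65 stood at 46.6 against 48.6 in R1 and 47.2 against 50.2 in R2, with a log2FC of -0.07 (SE 0.026, adjusted p = 0.130). Ttr, which the rule used, had medians of 10.9% of the UMIs of a cell in high-RNA against 11.3% in mid-depth cells of R1, and 12.3% against 12.9% in R2.

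Of the 12 genes of the visual cycle and retinoid handling, 4 rose and none fell, where 1.59% of all genes tested rose, and the median log2FC of the list was 0.06. Besides Rgr these were Rlbp1, Rdh10 and Rdh5. Rlbp1 encodes CRALBP, which carries 11-cis retinoids, and stood at 44.2 against 39.3 in R1 and 45.7 against 41.6 in R2 (log2FC 0.16, SE 0.027, adjusted p = 8.85e-07). Rdh5, the dehydrogenase that makes 11-cis-retinal, stood at 89.8 against 81.4 in R1 and 96.1 against 88.4 in R2 (log2FC 0.13, SE 0.022, adjusted p = 7.37e-07). For Rdh10, another retinol dehydrogenase, the levels were 26.4 against 23.9 and 26.5 against 24.2 (log2FC 0.14), and this call was lost with mid-depth cells of 8000 to 10000 UMIs (log2FC 0.11, adjusted p = 0.157). With cells of 12000 to 15000 UMIs in place of high-RNA cells, Rlbp1, Rdh5 and Rdh10 were not called, at a log2FC of 0.08, 0.07 and 0.09. All 3 had higher levels in the high-RNA cells of both mice. Lrat, which esterifies retinol, was at 14.9 against 13.7 in R1 and 15.5 against 14.8 in R2 and did not pass (adjusted p = 0.110), nor did the retinol receptor Stra6 (adjusted p = 0.578).

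Genes of melanin synthesis and of the melanosome fell in part. Of 11 genes, 6 fell, 5 did not pass and none rose, where 1.25% of all genes fell with the genes of the rule left out, and the median log2FC of the list was -0.38. Trpm1 stood at 0.309 in high-RNA against 0.940 in mid-depth cells of R1 and at 0.327 against 0.569 in R2, with a log2FC of -1.18 (SE 0.12, adjusted p = 2.11e-18). Pmel, which forms the fibrils on which melanin is laid down, was at 0.149 against 0.713 in R1 and 0.144 against 0.290 in R2 (log2FC -1.64, SE 0.17, adjusted p = 1.09e-19). The low level was similar in the high-RNA cells of both mice, and R1 had more Trpm1 and Pmel in its mid-depth cells than R2. Gpnmb, a melanosome glycoprotein related to Pmel, was at 0.855 against 1.57 in R1 and 0.578 against 1.00 in R2 (log2FC -0.84). Mlana, a melanosome membrane protein, was at 1.37 against 2.38 and 1.17 against 1.75 (log2FC -0.69). Dct, the dopachrome tautomerase, was at 6.71 against 9.75 and 5.78 against 6.75 (log2FC -0.38). DESeq2 did not call Dct (log2FC -0.37, adjusted p = 0.142). Slc45a2, a melanosome transporter, was at 0.0522 against 0.156 in R1 and 0.0836 against 0.154 in R2 (log2FC -1.15, SE 0.27). The call (adjusted p = 0.00166) was lost with high-RNA cells from 20000 UMIs (log2FC -0.95, adjusted p = 0.290), with mid-depth cells of 8000 to 10000 UMIs (log2FC -0.95, adjusted p = 0.253), with cells of 12000 to 15000 UMIs in place of high-RNA cells (log2FC -0.17) and without cells holding at least 2 UMIs of Serpine3 or Wfikkn2 (log2FC -0.85, adjusted p = 0.354). The tyrosinase family members besides Dct were not called. Tyr, which starts melanin synthesis, was at 2.34 against 2.52 in R1 and 1.81 against 1.94 in R2 (adjusted p = 0.581), and Tyrp1 at 1.49 against 1.80 and 1.23 against 1.14 (adjusted p = 0.754). Of the other members that did not pass, Oca2 was at 0.671 against 0.792 in R1 and 0.750 against 0.891 in R2, Slc24a5 at 1.92 against 2.41 and 1.95 against 1.93, and Gpr143, a receptor of the melanosome, at 1.00 against 0.794 and 0.828 against 0.819. Of 5 tested markers of pigment cells with low Ttr, Pax6, Dkk3 and Aldoc were called, all lower, beside 1.25% of all genes. Id3, the most abundant, was at 2.68 against 2.26 in R1 and 1.33 against 1.32 in R2 and did not pass, nor did Rax. The sum of the list was 3.48 against 3.58 in R1 and 2.00 against 2.34 in R2. Pax6 stood at 0.0201 against 0.0738 in R1 and 0.0101 against 0.0441 in R2, from 5 and 4 UMIs in the sums of high-RNA cells. Dkk3 was at 0.0643 against 0.217 and 0.0735 against 0.122, and Aldoc at 0.683 against 0.980 and 0.555 against 0.807. Without cells that held UMIs of at least 2 of Pax6, Dkk3, Zic4, Penk and Rax (8 high-RNA and 12 mid-depth cells of R1, 1 and 3 of R2), Trpm1 had a log2FC of -1.12, Pmel of -1.63 and Mlana of -0.67, and all 6 melanin genes were still called. The list for choroidal melanocytes, which shares Mlana with the melanin genes, summed to 2.08 against 3.12 in R1 and 1.71 against 2.46 in R2, with its 3 tested members lower in both mice and Mlana alone called. Its part in the result was not tested.

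Upstream sequences are shown for the genes with the largest changes in each direction among called genes with a mean of at least 0.5 UMIs per 10000 that RefSeq's table for GRCm38.p6 holds, since Trpm1 is 1 of the 6 melanin genes that fell and several of the 11 melanin genes are known targets of MITF, the transcription factor of pigment cells, which binds E-boxes. Each run is the 250 bases before an annotated start, 5' to 3' on the strand of the gene, with CACGTG, or CATGTG or its reverse complement CACATG, in capitals. The windows of Serpine3 (chr14:62663417-62663666, plus strand) and Trpm1 (chr7:64153585-64153834 and chr7:64185209-64185458, plus strand, from 2 starts) belong to genes that fell, those of Rbbp7 (chrX:162760122-162760371, plus strand) and Cldn10 (chr14:118787621-118787870 and chr14:118854700-118854949, plus strand) to genes that rose.
Serpine3: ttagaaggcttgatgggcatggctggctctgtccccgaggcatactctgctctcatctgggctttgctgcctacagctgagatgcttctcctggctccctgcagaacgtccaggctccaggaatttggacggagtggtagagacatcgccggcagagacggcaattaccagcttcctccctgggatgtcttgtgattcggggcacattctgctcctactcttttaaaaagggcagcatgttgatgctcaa
Trpm1 first start: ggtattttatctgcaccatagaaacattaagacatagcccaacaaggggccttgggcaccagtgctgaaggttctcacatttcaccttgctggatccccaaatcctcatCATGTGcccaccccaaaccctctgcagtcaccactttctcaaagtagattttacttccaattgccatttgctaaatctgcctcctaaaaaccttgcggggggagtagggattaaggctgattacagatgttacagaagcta
Trpm1 second start: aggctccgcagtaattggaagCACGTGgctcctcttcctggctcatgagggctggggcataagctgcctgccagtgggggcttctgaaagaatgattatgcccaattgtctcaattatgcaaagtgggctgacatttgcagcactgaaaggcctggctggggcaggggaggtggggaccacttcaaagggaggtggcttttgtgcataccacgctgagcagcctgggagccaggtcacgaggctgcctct
Rbbp7: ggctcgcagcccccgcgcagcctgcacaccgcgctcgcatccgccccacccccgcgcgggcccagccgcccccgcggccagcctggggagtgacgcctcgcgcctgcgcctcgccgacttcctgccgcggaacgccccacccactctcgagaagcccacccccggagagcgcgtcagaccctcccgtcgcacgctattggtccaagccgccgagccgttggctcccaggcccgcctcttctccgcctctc
Cldn10 first start: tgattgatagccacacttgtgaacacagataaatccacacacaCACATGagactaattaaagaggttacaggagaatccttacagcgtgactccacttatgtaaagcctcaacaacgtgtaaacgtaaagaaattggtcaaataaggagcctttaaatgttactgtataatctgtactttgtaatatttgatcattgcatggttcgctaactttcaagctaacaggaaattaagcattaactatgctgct
Cldn10 second start: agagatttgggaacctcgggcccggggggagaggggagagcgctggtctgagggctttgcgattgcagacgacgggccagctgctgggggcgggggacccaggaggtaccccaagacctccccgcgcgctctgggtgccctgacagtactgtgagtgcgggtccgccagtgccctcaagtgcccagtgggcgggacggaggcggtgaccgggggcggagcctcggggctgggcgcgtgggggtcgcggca

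Both windows of Trpm1 held an E-box of this kind, 1 CATGTG and 1 CACGTG, the first window of Cldn10, a gene that rose, held 1 CATGTG on the opposite strand, and the second window of Cldn10 and those of Serpine3 and Rbbp7 held none. Among all 32851 windows of this length in the table, searched on both strands, 17.6% held at least 1 of the motifs, 6.02% CACGTG and 12.3% CATGTG. Of the 11 melanin genes, 7 were in the table, and 7 of their 8 windows held a motif. Of the 12 genes named below as lower, 9 were in the table and 3 of 14 windows held one, and of the 12 named as higher, 10 were in the table and 4 of 13 did. The motif was searched after the values had been seen, and a match is a description of these letters only. Mitf itself was at 0.783 against 0.832 in R1 and 0.884 against 0.933 in R2 (adjusted p = 0.834).

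The 12 genes with the largest falls, among genes called in the same direction in both mice with a mean of at least 0.5, were Serpine3, Trpm1, Gpnmb, Gm42418, Ggt1, Cox8b, Car10, Wfikkn2, Mlana, Slc7a5, Igfbp5 and Thbs4. Their log2FC ran from -1.35 to -0.55. Serpine3 (14:62663667-62692243, plus strand, GRCm38) stood at 0.378 in high-RNA against 1.45 in mid-depth cells of R1 and at 0.646 against 1.26 in R2, with a log2FC of -1.35 (SE 0.096, adjusted p = 1.08e-41). Its level did not fall steadily with depth in either mouse. From 6000 UMIs on it was 1.43, 0.145, 0.394 and 0.372 in the 4 intervals of depth in R1 and 1.25, 0.709, 0.957 and 0.250 in R2, with limits at 12000, 15000 and 20000 UMIs. Wfikkn2, an inhibitor of growth factors of the TGF-beta family, was at 0.855 against 1.60 in R1 and 1.02 against 1.49 in R2 (log2FC -0.71). Counted on all UMIs of a cell, at unequal depth, cells with at least 2 UMIs of Serpine3 or Wfikkn2 were 35.4% of high-RNA and 33.7% of mid-depth cells in R1, and 46.7% and 38.3% in R2. When they were left out, 18 of the 24 genes named as largest changes in either direction were still called, Trpm1 among them (log2FC -0.94). The 18 include Wfikkn2 (log2FC -0.92), from whose call nothing is read, since it also chose these cells. Of the other 6, Serpine3 is a gene that chose these cells, and Fbln5, Abhd12, Psmd6, Gyg and Rab28 are among the rises.

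Cox8b, a subunit of cytochrome c oxidase best known from heart and muscle, had different levels in the 2 mice. It stood at 4.41 in high-RNA against 8.78 in mid-depth cells of R1 and at 2.52 against 3.64 in R2 (log2FC -0.78, SE 0.050). Igfbp5, which binds insulin-like growth factors, was at 1.43 against 2.34 and 0.922 against 1.23 (log2FC -0.57). Its neighbour on chromosome 1, Igfbp2, moved the other way and stood at 3.74 against 2.66 in R1 and 2.84 against 2.31 in R2 (log2FC 0.40, SE 0.059). Slc7a5, a transporter of large neutral amino acids, fell to 0.835 from 1.33 in R1 and to 0.608 from 0.875 in R2. Ggt1, the gamma-glutamyltransferase that breaks down extracellular glutathione, was at 0.446 against 0.910 and 0.350 against 0.497 (log2FC -0.78). Gm42418 was at 2.48 against 3.81 in R1 and 2.02 against 4.13 in R2 and is uncertain, since it overlaps ribosomal RNA sequence.

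**Figure D4:**
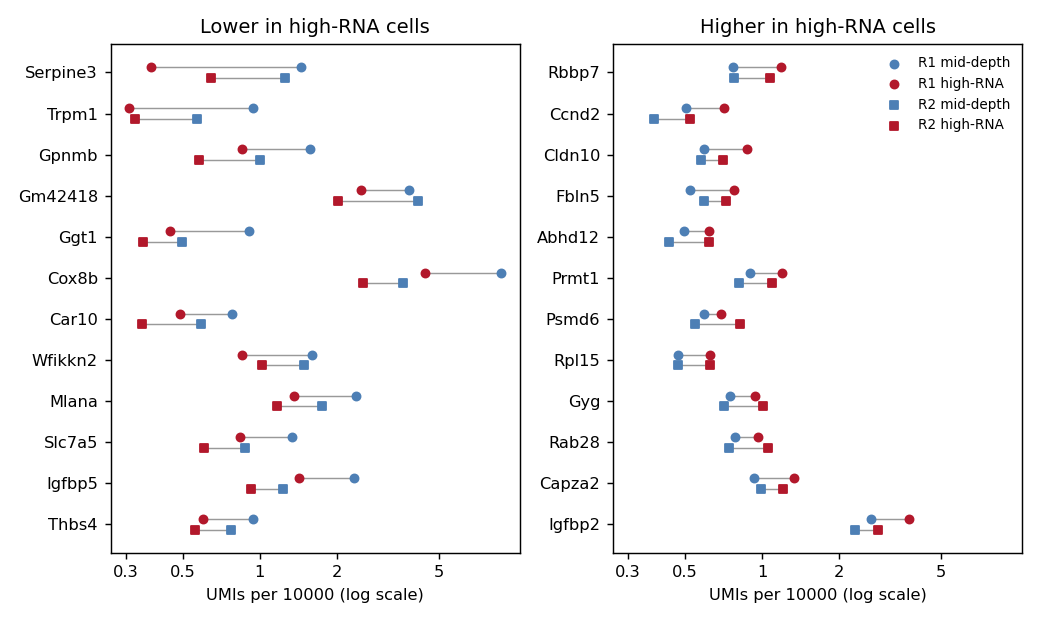
Level in UMIs per 10000 (x axis, log scale) of the 12 genes with the largest falls (left) and the 12 with the largest rises (right), in mid-depth (blue) and high-RNA cells (red) of R1 (circles) and R2 (squares). Among these genes, all with a mean of at least 0.5 UMIs per 10000, the falls reach a log2FC of -1.35 and the rises 0.54.

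The rises were smaller. The 12 genes with the largest ones, by the same rule, were Rbbp7, Ccnd2, Cldn10, Fbln5, Abhd12, Prmt1, Psmd6, Rpl15, Gyg, Rab28, Capza2 and Igfbp2, with a log2FC from 0.54 to 0.40. Rbbp7 (X:162760402-162779092, plus strand, GRCm38), a histone-binding protein of several chromatin complexes, stood at 1.18 in high-RNA against 0.772 in mid-depth cells of R1 and at 1.07 against 0.775 in R2 (log2FC 0.54, SE 0.091, adjusted p = 6.58e-07). With cells of 12000 to 15000 UMIs in place of high-RNA cells, Rbbp7 was not called (log2FC 0.22, adjusted p = 0.689). Ccnd2, the D-type cyclin D2, was at 0.707 against 0.504 and 0.522 against 0.377 (log2FC 0.48, SE 0.12, adjusted p = 0.00453). Cldn10, a tight junction protein, was at 0.871 against 0.591 in R1 and 0.704 against 0.577 in R2, and Cldn2, another claudin, at 0.506 against 0.345 and 0.466 against 0.355 (log2FC 0.47, adjusted p = 0.0223). Prmt1, the main arginine methyltransferase, was at 1.19 against 0.894 in R1 and 1.09 against 0.813 in R2. Gyg, the primer of glycogen, was at 0.936 against 0.748 and 1.00 against 0.711. Rpl15 belongs to a family with many processed copies, and its value is uncertain. Without cells of high doublet score, Abhd12, Rpl15 and Cldn2 were no longer called, and with another thinning seed Cldn10, Fbln5, Abhd12 and Prmt1 were not. These genes kept their direction. Of the 24 genes named as largest changes, 14 lost their call with cells of 12000 to 15000 UMIs in place of high-RNA cells. With mid-depth cells of 8000 to 10000 UMIs 8 did, with high-RNA cells from 20000 UMIs 6 and with depth from the other genes 5. Of 4 tested genes of proliferation, including Cdk1 at 0.353 against 0.349 in R1 and 0.418 against 0.294 in R2, none passed.

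Mitochondrially encoded transcripts, which the filter used and for which no test is read, made up less of the high-RNA cells. Their median share was 0.911% against 1.33% in R1 and 1.04% against 1.45% in R2. Of 13 such genes 11 had a UMI, and the 10 that passed the filter on low counts all lay lower in both mice, among them mt-Nd4, a subunit of complex I, at 25.7 against 41.8 in R1 and 25.8 against 40.0 in R2, and mt-Cytb of complex III at 37.5 against 57.3 and 42.3 against 61.9. Per cell, mt-Nd4 had 47.0 UMIs in high-RNA against 36.3 in mid-depth cells of R1 and 52.2 against 34.7 in R2, so that it rose less than the total. Nuclear genes of oxidative phosphorylation moved in both directions by small amounts. Of 77 tested, 12 fell and 3 rose, beside 1.25% and 1.59% of all genes, with a median of -0.05. Those that fell included Cox5b of complex IV (log2FC -0.21, SE 0.050) and Ndufc1 of complex I (log2FC -0.20, SE 0.044), and the 3 that rose, Atp5c1, Atp5f1 and Atp5b, all encode parts of the ATP synthase. Atp5c1 was at 3.79 against 3.16 in R1 and 4.52 against 3.56 in R2 (log2FC 0.31, SE 0.053, adjusted p = 1.29e-06). Among 14 genes of glycolysis tested, 1 fell, Aldoc (log2FC -0.53), beside 1.25% of all genes, and none rose. Aldoc is also among the markers of low-Ttr pigment cells that fell.

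Malat1, a long noncoding RNA that stays in the nucleus, was lower in high-RNA cells. It stood at 117.3 against 154.3 in R1 and at 142.9 against 178.2 in R2 (log2FC -0.35, SE 0.020, adjusted p = 3.03e-65). Neat1, another nuclear RNA, was at 0.373 against 0.525 and 0.253 against 0.323 and did not pass (adjusted p = 0.0942). The metallothioneins Mt1 and Mt2, which bind zinc and copper, fell as well. Mt1 was at 119.2 against 153.3 in R1 and 114.7 against 140.2 in R2 (log2FC -0.32, SE 0.021), and Mt2 at 26.7 against 36.3 and 23.0 against 30.2 (log2FC -0.42, SE 0.029). They were the only genes called among 22 antioxidant genes tested, beside 1.25% of all genes that fell.

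**Figure D5:**
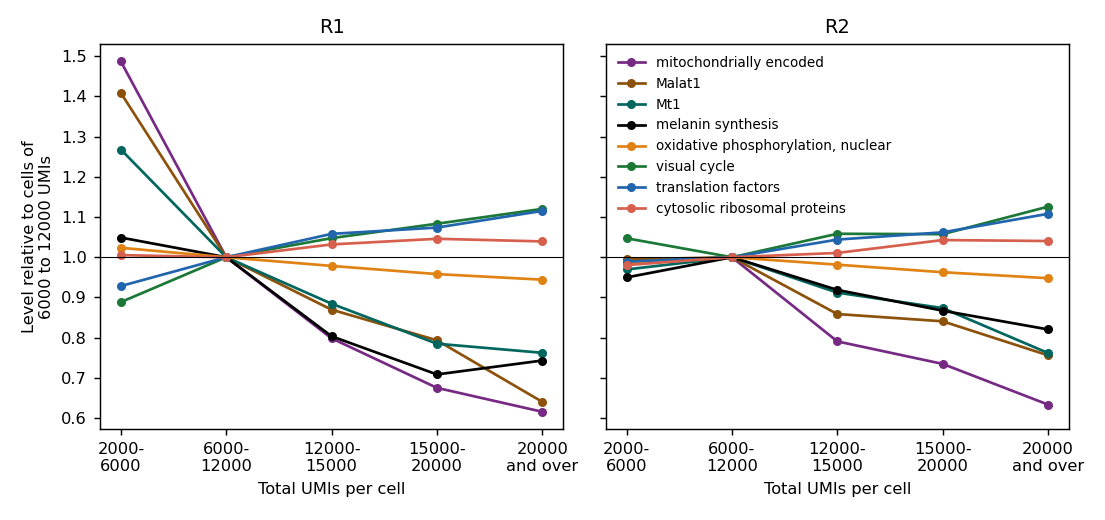
Level of gene groups and of Malat1 and Mt1 relative to cells of 6000 to 12000 UMIs (y axis) by total UMIs per cell (x axis, 5 intervals) in R1 (left) and R2 (right). From 6000 UMIs on, mitochondrially encoded genes, Malat1 and Mt1 descend in both mice, and below 6000 UMIs they are higher in R1 and near 1 in R2.

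Mitochondrially encoded genes, Malat1 and Mt1 descended through the intervals of depth above 6000 UMIs in both mice, as the plot by depth shows. Of the 24 genes named for the largest changes, Gpnmb and Igfbp2 moved 1 way through all 4 intervals in both mice, and the others turned back in at least 1 mouse. The summed level of mitochondrially encoded genes in R1 was 143.1 in cells of 6000 to 12000 UMIs, 114.3 from 12000 to 15000, 96.6 from 15000 to 20000 and 88.1 above, and in R2 it was 156.6, 123.8, 115.0 and 99.2. Malat1 went from 154.2 to 134.1, 122.3 and 98.7 in R1 and from 178.5 to 153.3, 150.1 and 135.0 in R2. The melanin genes summed to 23.7, 19.1, 16.8 and 17.6 in R1 and to 17.2, 15.8, 14.9 and 14.1 in R2. Genes of the visual cycle went the other way, from 503.1 to 527.0, 545.0 and 563.6 in R1 and from 541.0 to 572.6, 572.0 and 609.1 in R2. Rgr carried much of this, with a rise from 192.5 to 229.1 between the first and the last of these intervals in R1 and from 212.9 to 260.1 in R2, and without it the sum went from 310.6 to 334.5 in R1 and from 328.1 to 348.9 in R2. Rpe65 stood at 48.5, 47.1, 45.9 and 49.2 in R1 and at 50.1, 50.2, 48.2 and 46.3 in R2. Below 6000 UMIs the mice parted. Malat1 was at 217.2 in such cells of R1 and at 177.5 in those of R2, and Rgr at 156.6 and 244.0, so that the order of the 5 intervals was steady for these genes in R1 and not in R2. Cells of 12000 to 15000 UMIs, tested against mid-depth cells in place of high-RNA cells, differed in 44 genes, and Trpm1, Malat1 and Rgr were among them.

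Genes of translation rose in part. Beside 1.59% of all genes that rose, 4 of 15 translation factors rose and none fell, with a median log2FC of 0.10, among them Eef1a1, the elongation factor that brings tRNA to the ribosome, at 10.3 against 8.97 in R1 and 9.57 against 8.39 in R2 (log2FC 0.20, SE 0.040). Of 65 cytosolic ribosomal proteins tested, 7 rose and none fell, with a median of 0.05, including Rpl4 (log2FC 0.25, SE 0.058) and Rps9 (log2FC 0.21, SE 0.046). The call of Rps23, another of the 7 (log2FC 0.95, adjusted p = 0.0264), held with unthinned sums and without the filter on low counts and was lost under every other setting that gave an adjusted p, at a log2FC from -0.07 to 1.07. Rps2, also among them, lost its call under several settings too, at a log2FC from 0.08 to 0.23. Many of these genes have processed copies in the genome, so that their UMIs may be split. Subunits of the proteasome, a list chosen after Psmd6 had been seen, gave 7 of 35 that rose, again beside 1.59%, and none that fell, with a median of 0.09. Psmd6 is itself among the 7, so nothing is read from that count. None of 13 genes of ribosome biogenesis and none of 19 chaperones of the endoplasmic reticulum passed, Hspa5 being at 4.67 against 4.60 in R1 and 2.87 against 2.73 in R2.

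Genes of RPE transport and secretion showed small changes. Of 13 genes for ion and metabolite transport, 2 rose and 2 fell, beside 1.59% and 1.25% of all genes. Bsg, the chaperone of lactate transporters at the cell surface, was at 99.7 against 92.7 in R1 and 95.2 against 84.2 in R2 (log2FC 0.15, SE 0.022), and the carbonic anhydrase Car14 rose likewise (log2FC 0.14, SE 0.029). Slc2a1, the glucose transporter GLUT1, was at 8.55 against 9.34 and 8.30 against 9.45 (log2FC -0.15, SE 0.040), and Slc4a5, a bicarbonate cotransporter, fell as well (log2FC -0.25, SE 0.056). Among 13 secreted factors and matrix genes, Enpp2, Apoe and Ptgds rose and Col18a1 fell, against the same shares of all genes. Enpp2, or autotaxin, had the largest of the rises, at 28.2 against 26.0 in R1 and 22.4 against 19.6 in R2 (log2FC 0.16, SE 0.031). None of 9 genes for the uptake of outer segments passed, and Mertk, a receptor in that uptake, was at 0.590 against 0.514 and 0.557 against 0.537.

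Genes of stress gave 2 calls, both among heat shock genes. Of 12 immediate-early genes tested, which respond to tissue dissociation within minutes, none passed, and Jun was at 0.369 against 0.341 in R1 and 1.04 against 1.05 in R2. The mice differed in Jun more than the classes of cells did. Of 9 heat shock genes, Hsp90aa1 rose (log2FC 0.16) and Hspa1a fell (log2FC -0.22), beside 1.59% and 1.25% of all genes. Without cells of high doublet score, Hspa1a kept its direction but was not called, and the part of doublets in this was not tested. None of 2 inflammatory genes and none of 9 genes of antigen presentation and interferon response passed. Of these 9 genes, 8 lay lower in both mice, and the median log2FC of the 9 was -0.24, beside -0.00356 over all genes tested. Only 2 members of the list had a mean of at least 0.5 UMIs per 10000, so most of these values rest on few UMIs. The list summed to 13.3 against 14.1 in R1 and 12.7 against 13.7 in R2. The share of all genes lower in both mice was not counted, so nothing is read from the 8. Among 7 RPE transcription factors tested, only Pax6 was called, as lower, beside 1.25% of all genes that fell. That call rests on 5 UMIs in the sum of high-RNA cells of R1 and 4 in that of R2. Otx2, which maintains the RPE, was at 4.67 against 4.53 and 4.09 against 4.13.

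Genes that mark subsets of RPE cells in these libraries gave a mixed picture, and the list was drawn up with results of these libraries known. Of 9 genes, Igfbp2 and Sostdc1 rose and Serpine3, Wfikkn2, Actb, Abhd2 and Gnb1 fell, beside 1.59% and 1.25% of all genes. Since the list was drawn up on these libraries, nothing is read from that count. The calls of the last 3 rest on R2. Actb, which encodes beta-actin, was at 3.08 against 3.04 in R1 and at 2.80 against 6.44 in R2, and Abhd2 at 1.38 against 1.201 in R1 and 1.18 against 2.37 in R2. In R1 alone, Actb and Abhd2 thus lay slightly higher in high-RNA cells, and Gnb1, a G protein subunit, was at 1.63 against 1.64 there and at 1.505 against 2.59 in R2.

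Among themselves, the high-RNA cells were compared after 15000 UMIs had been drawn from each. Of 1821 genes with a mean of at least 1 UMI in both mice, the median ratio of variance to mean was 1.67 in R1 and 1.83 in R2, and 221 genes exceeded 2 in both. Independent counts would give 1, but UMIs came in groups, as described above. The 10 genes with the largest ratios were Ttr, Trf, Malat1, Cox8b, Mt1, Apoe, Ptgds, Sult1c1, Cst3 and Rgr. Trf, which encodes the iron carrier transferrin, had a ratio of 36.8 in R1 and 43.7 in R2, and its count ran from 85 at the 10th percentile through a median of 179 to 299.6 at the 90th in R1 and from 82 through 162 to 306.3 in R2. Its level varied among high-RNA cells and was alike in the classes, at 123.8 against 135.2 in R1 and 120.7 against 116.6 in R2 (adjusted p = 0.503). Cox8b was at 0 in 68 of 415 high-RNA cells of R1 and in 258 of 658 of R2, with up to 71 and 67 UMIs in 1 cell. Sult1c1, a sulfotransferase, was at 0 in 268 and 479 cells and reached 43 and 36 UMIs, and its level was 1.15 against 1.33 in R1 and 0.909 against 1.34 in R2 (log2FC -0.39, adjusted p = 0.000333). Ttr, on which cells were selected, ran from 1344.8 to 2037.4 UMIs between the same percentiles in R1. The ratio grows with the level of a gene, so it does not rank genes by relative spread. Rpe65 had a ratio of 7.69 in R1 and 8.61 in R2, and its count ran from 42 through 67 to 103 in R1 and from 42.7 through 67 to 105 in R2.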

How the data were processed

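The authors processed the reads with Cell Ranger 1.2.0 on GRCm38 and deposited raw UMI counts per mouse, not normalized, from which neither ambient RNA nor doublets had been removed. The labels and the paper name different versions of the 10x chemistry. Levels are UMIs per 10000, not scaled by gene length, which suits 3' tags. Cells were filtered as the report states and thinned without replacement to 6000 UMIs. Counts were summed per mouse and class and tested in R 4.3.3 with edgeR 4.0.16 (TMM, filterByExpr, quasi-likelihood test, Benjamini-Hochberg adjustment over all genes tested, adjusted p under 0.05). The mouse was a block because both sums of a mouse come from the same animal, and the differences between the mice in the 2 classes correlated across 2383 genes with r = 0.62. An SE is the log2FC over the square root of F. DESeq2 1.42.0 was an alternative, and the doublet score came from Scrublet in scanpy 1.11.5. The test was tested on simulated data with 1 dispersion for all genes and without UMIs in groups. Of 200 changed genes, edgeR recovered 11.5% at a true log2 change of 0.3, 40% at 0.5 and 79.5% at 1. With no true change it called 0 genes. A gene that did not pass can therefore still differ by such amounts.

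The members, gene lists and tests were chosen with earlier results of these data known. Genes named as largest changes had an adjusted p under 0.05, the same direction in both mice and a mean of at least 0.5 UMIs per 10000, without Ttr and mitochondrially encoded genes, and the 12 largest of each direction were taken, with the markers, the 2 largest changes of a list in each direction and the 10 most variable genes. Genes named outside that rule as examples of a list were chosen after their values were seen. Coordinates are from GENCODE M21 for GRCm38 and sequences from RefSeq for GRCm38.p6. Intervals of shares cover counting error only, and the p-values rest on 2 mice, whose mean difference the block removes, with 1 residual degree of freedom per gene and a spread moderated over all genes, so that very small p-values depend on that moderation. Alternatives included other normalization, filters, thinning, depth limits and cells left out. SoupX and the clusters of the study were not used here. The result of 1 gene, and of the list that holds it, is not reported here.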

Additional observations from a re-analysis of the deposited data

How the results depend on the processing

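Of the 293 genes called, counts under other settings stayed within 1.5 times that number without TMM (233), without the filter on low counts (257), with another thinning seed (345), without the highest doublet scores (266), without cells holding markers of other cell types (237) and with depth from the other genes (277), and also without cells marked by genes of low-Ttr cells (223) or by Serpine3 or Wfikkn2 (198), which were chosen after seeing the data. They fell to 4 without the replicate block, since the mice then enter the spread, to 34 with DESeq2, which left 9376 genes without an adjusted p, to 123 with high-RNA cells from 20000 UMIs, to 106 with mid-depth cells of 8000 to 10000 UMIs and to 44 with cells of 12000 to 15000 UMIs in place of high-RNA cells, for which the cause was not tested, and rose to 512 with unthinned sums, which hold more UMIs. A similar count did not mean the same genes. Of the genes called in the main setting, 217 of 292 tested were called again with another thinning seed. Without the highest doublet scores 241 of 293 were, without cells holding other markers 222 of 292, and without cells marked by Serpine3 or Wfikkn2 161 of 286. All 4 genes called without the block were among the 293, and of the genes called in the main setting 282 of 292 tested kept their direction with cells of 12000 to 15000 UMIs and all that were tested did under the other settings. The ratio of genes detected, 1.09 as the mean of both mice at 6000 UMIs, was 1.59 without thinning and 1.03 with 1000 UMIs drawn per cell, added after seeing the data, and 1.07 to 1.11 when either mouse was left out. Rps23, a ribosomal protein called as higher, had a log2FC of -0.0669 with cells of 12000 to 15000 UMIs. When either mouse was left out, Actb had a log2 ratio of -1.17 to 0.0187 and Abhd2 of -0.946 to 0.187, against -0.64 and -0.46 in the fit of both mice. Over 92 genes named or called within lists, 910 of 1253 log2FC under other settings of the test stayed on the same side of the threshold and in the same direction, 339 no longer passed and 3 newly passed. Leaving out a mouse leaves no residual degrees of freedom, so these are values without a test and no count of calls was made. Weakly expressed genes had few UMIs per sum, and UMIs in groups make counting errors larger than independent counts would.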
